A study of Homo sapiens with 6 samples.

Results

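The genes examined here are 10 inflammatory cytokine and chemokine genes, IL6, LIF, IL11, IL1B, CXCL1, CXCL2, CXCL3, CXCL8, CCL2 and CSF1, out of 19982 protein-coding genes. They were followed across ChIP-seq peak lists of 3 factors in 786-O cells, a clear cell renal cell carcinoma line. A peak was counted at a gene when its summit lay in the GENCODE 44 gene or within 20 kb on either side. HA-DPF3a, the tagged short isoform of the SWI/SNF subunit DPF3, was precipitated through the HA tag from cells that overexpress it, after fixation with DSG and formaldehyde. Endogenous SMAD4, the common SMAD of TGF-β signaling, and p300, a histone acetyltransferase, were precipitated with their own antibodies after formaldehyde alone, and the labels do not say whether these cells overexpress DPF3a. No added cytokine is named for any of the cells, and no control library is used here. Each factor had 2 libraries and 1 list made from both, so no value below carries a replicate error and no test between factors was possible. Fixation, antibody, depth and factor cannot be told apart, and strengths are therefore ranked only within a list.

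IL6, LIF and IL11 encode ligands that signal through the shared receptor gp130 to STAT3, and IL1B encodes the cytokine of the IL-1 receptor that activates NF-κB. CXCL1, CXCL2, CXCL3 and CXCL8 are neutrophil-attracting chemokines that act on CXCR2 and lie in one cluster on chromosome 4, CCL2 attracts monocytes, and CSF1 is the growth factor of macrophages. Their transcription is known to depend on NF-κB, AP-1 and C/EBP factors at promoters and distal elements. Many tumor cells, renal carcinoma cells among them, secrete several of these proteins.

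SMAD4 had a peak at 10 of the 10 genes, DPF3a at 9 and p300 at 6. Over all protein-coding genes the shares were 81.4% for SMAD4, 79.1% for DPF3a and 64.8% for p300, so the members' counts lay near the background. Most members are short, and among the 8538 protein-coding genes of at most 20751 bp, the length of the longest member, the shares were 71.7%, 68.4% and 52.6%. CXCL1 was the member without a DPF3a peak, and IL11, IL1B, CXCL8 and CCL2 were those without a p300 peak. The windows held 26 distinct DPF3a peaks, 35 SMAD4 peaks and 9 p300 peaks, and none fell into more than 1 window. LIF had the most SMAD4 peaks, 8, a number that 5.84% of all protein-coding genes reached. IL11 followed with 6 (12.8% of genes), and CSF1 had 5 DPF3a, 5 SMAD4 and 3 p300 peaks (17.8%, 19.7% and 15.4% of genes). CCL2 had 1 DPF3a and 1 SMAD4 peak. The mean over the members was 2.6 DPF3a, 3.5 SMAD4 and 0.9 p300 peaks per gene, beside 2.78, 2.86 and 1.33 over all protein-coding genes. Over the 8538 short genes the means were 1.64, 2.04 and 0.862.

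**Figure D1:**
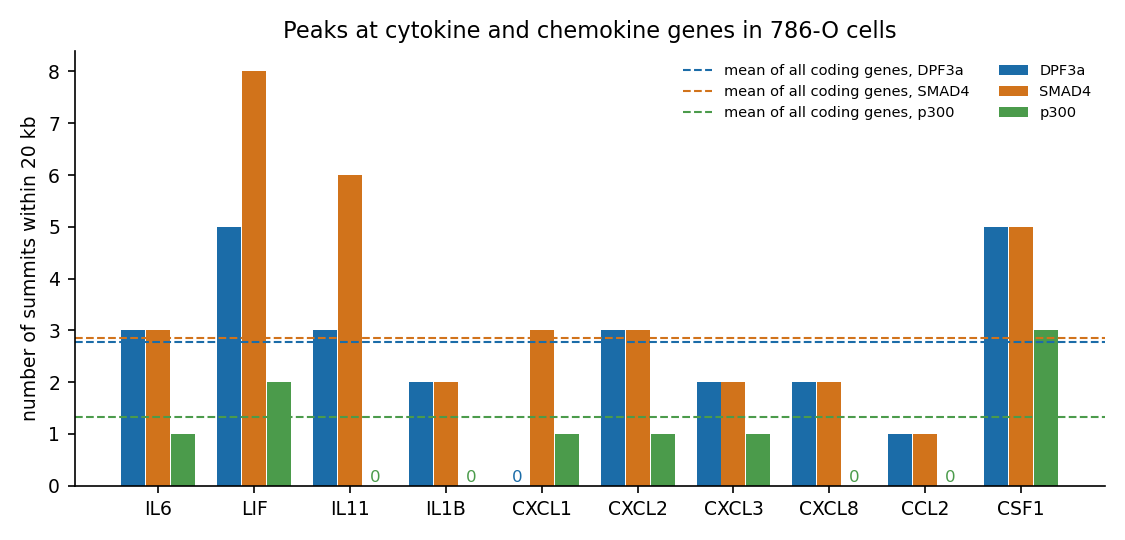
Number of summits in each gene or within 20 kb of it (y axis) for the 10 genes (x axis), with 1 bar per peak list. A dashed line marks the mean over all protein-coding genes, of any length. LIF reaches 8 SMAD4 peaks, CXCL1 has 0 DPF3a peaks, and IL11, IL1B, CXCL8 and CCL2 have 0 p300 peaks.

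Promoters, from 1000 bp before to 100 bp after a transcript start of the gene, held a DPF3a summit at 6 members, a SMAD4 summit at 7 and a p300 summit at 2. The shares over all protein-coding genes were 41.8%, 57.3% and 33.0%. Among the short genes all 3 shares were lower, with 31.2% for DPF3a and 21.8% for p300. DPF3a was at the promoters of IL6, IL11, CXCL2, CXCL3, CXCL8 and CSF1, and SMAD4 at those of the same genes and of CXCL1. The p300 promoter summits were at CXCL1 and CXCL2. LIF, IL1B and CCL2 had peaks only outside their promoters. A site was counted as shared when the overlap covered at least 0.5 of both peaks. By this rule 9 members held a DPF3a-SMAD4 site, 5 a SMAD4-p300 site, 3 a DPF3a-p300 site and 3 a site of all 3 factors. The shares were 69.2%, 52.8%, 44.7% and 41.4% of all protein-coding genes, and 58.1%, 41.3%, 35.3% and 32.1% of the short genes. The members with a site of all 3 factors were LIF, CXCL3 and CSF1.

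The strength of a peak is given below as the fold enrichment of the peak caller at the summit, and as the height of the summit in reads with the local background, both recovered from the deposited values. The fold enrichment is the height plus 1 over the local background plus 1. The brackets after a height hold its exact 95% Poisson interval, which covers counting error only. Positions count from the start of the canonical transcript and are negative upstream. Capitals in the sequences mark matches of AP-1, CRE, NF-κB, C/EBP, RUNX and TEAD motifs on either strand, not of the ETS and SMAD motifs, so that the AP-1 consensus TGACTCA also appears as TGAGTCA.

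IL6 (ENSG00000136244, chr7:22725884-22732002, plus strand) had DPF3a and SMAD4 at the same 3 places. The highest DPF3a summit was in a coding exon of the gene, at 4228 bp, with 97 reads (78.7 to 118) over a local background of 10.2 and a fold enrichment of 8.77. SMAD4 had 58 reads (44 to 75) over 12.6 there, a fold enrichment of 4.34. That DPF3a summit ranked at percentile 97.6 of its list by height and 73.3 by fold enrichment, whereas the SMAD4 summit ranked at 68.0 and 14. At the promoter, which IL6-AS1 overlaps, DPF3a had 59 reads at −339 bp and SMAD4 68 reads at 34 bp, over backgrounds of 11.2 and 14.4. The p300 peak of IL6 was at −8588 bp, in an intron of STEAP1B, with 25 reads over 3.58 and a fold enrichment of 5.68. It touched the DPF3a peak at −8932 bp and the SMAD4 peak at −8858 bp, but by less than the shared overlap. The exonic window is shown because it holds the highest DPF3a summit of the gene. Its 121 bases are centred on the summit (hg38, plus strand, chr7:22731368-22731488), with a RUNX match in capitals.
IL6: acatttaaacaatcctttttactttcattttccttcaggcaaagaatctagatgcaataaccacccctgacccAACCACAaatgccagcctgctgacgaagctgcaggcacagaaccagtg

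LIF (ENSG00000128342, chr22:30240453-30246759, minus strand) had the highest summits among the members in each list. All 15 of its peaks were intergenic. Downstream of the gene, at 10803 bp for DPF3a and 10769 bp for SMAD4, DPF3a had 105 reads (85.9 to 127) over 7.92 and SMAD4 239 reads (210.0 to 271.0) over 21.6. The fold enrichments were 11.9 and 10.6, and the heights ranked at percentile 98.3 of the DPF3a list and 99.7 of the SMAD4 list. No p300 peak met this site. Between LIF and OSM, a gene of a related cytokine, a site of all 3 factors lay with DPF3a at −11029 bp, SMAD4 at −11074 bp and p300 at −11111 bp. Its heights were 73 reads (57.2 to 91.8), 160 reads (136.0 to 187.0) and 76 reads (59.9 to 95.1), over backgrounds of 10, 31.7 and 14.8. It was the highest p300 summit among the members, at percentile 99.7 of the p300 list by height but 45.4 by fold enrichment. This site is nearer to the start of OSM than to that of LIF. The other site of all 3 factors was downstream, at 22090 bp for DPF3a, with 25 DPF3a, 40 SMAD4 and 32 p300 reads and fold enrichments of 3.58, 3.38 and 3.25. A further DPF3a-SMAD4 site at −4134 bp had 90 DPF3a and 134 SMAD4 reads.

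Between these upstream sites SMAD4 had 3 more peaks, at −6084, −6518 and −9342 bp. They had 81, 104 and 76 reads, but fold enrichments of only 2.03, 2.38 and 1.98, since the local backgrounds were 39.3, 43.2 and 37.9 reads. Backgrounds this high were at percentile 99.8 to 99.9 of all SMAD4 peaks, whose median background was 5.16 reads. The fold enrichments ranked at percentile 0.0129 to 0.164, that is among the lowest of the list, while the heights ranked at 80.0 to 91.2. DPF3a backgrounds in the LIF windows were also high, 6.14 to 11.1 reads against a list median of 2.82, and those of p300 were 9.16 and 14.8 against 3.76. At a given height, a higher background lowers the fold enrichment by definition. What raised the backgrounds at LIF was not tested. With no control named, whether they hold reads of the neighboring peaks was not tested either. The summit window of the strongest site is shown, centred on the DPF3a summit (hg38, plus strand, chr22:30235896-30236016), and none of the marked motifs was found in it.
LIF downstream: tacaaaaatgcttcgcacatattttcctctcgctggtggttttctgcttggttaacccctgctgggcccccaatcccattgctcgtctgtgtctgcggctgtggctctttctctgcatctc

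IL11 (ENSG00000095752, chr19:55364382-55370463, minus strand) had 6 SMAD4 and 3 DPF3a peaks. The strongest SMAD4 peak was at −3906 bp, with 142 reads (120.0 to 167.0) over 18.2 and a fold enrichment of 7.46, at percentile 97.2 of its list by height. DPF3a had 20 reads (12.2 to 30.9) over 4.18 nearly at the same place, −3861 bp, where its narrower peak touched the SMAD4 peak without passing the shared overlap. This place is nearer to the start of TMEM190 than to that of IL11. The strongest DPF3a peak was at the promoter, at −146 bp, with 34 reads (23.5 to 47.5) over 4.32 and a fold enrichment of 6.58. SMAD4 had 85 reads at 505 bp and 47 reads at 1019 bp, over 19.5 and 17.4. The shared site, at −2432 bp for DPF3a and −2438 bp for SMAD4, had 20 DPF3a and 65 SMAD4 reads. The SMAD4 peaks at −13474 and −15464 bp belonged to other genes by position, a coding exon of TMEM238 and the promoter of RPL28. No p300 peak lay in the window, and the nearest was 105118 bp from the gene. The promoter is shown because it holds the strongest DPF3a summit and an AP-1 match, in capitals. The sequence covers 150 bases before the RefSeq transcript start (GRCh38.p14, minus strand, chr19:55370464-55370613), and the window at the shared site follows (hg38, plus strand, chr19:55372835-55372955).
IL11 promoter: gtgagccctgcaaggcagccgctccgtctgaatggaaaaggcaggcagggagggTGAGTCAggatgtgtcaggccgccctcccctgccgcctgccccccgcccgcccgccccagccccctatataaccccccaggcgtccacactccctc
IL11 upstream: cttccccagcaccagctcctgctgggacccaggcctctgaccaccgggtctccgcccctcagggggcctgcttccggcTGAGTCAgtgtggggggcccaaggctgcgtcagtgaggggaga

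IL1B (ENSG00000125538, chr2:112829751-112836816, minus strand) had low summits. DPF3a had 17 reads (9.9 to 27.2) over 2.12 at 12290 bp, downstream of the gene, and 15 reads over 2.32 at 18497 bp. SMAD4 shared the nearer of these, with 30 reads (20.2 to 42.8) over 4.52 at 12289 bp and a fold enrichment of 5.62. A separate SMAD4 peak was in an intron at 4539 bp, with 22 reads over 2.98. No p300 peak lay in the window, and the nearest was 65160 bp from the gene. The highest IL1B summits ranked at percentile 23.8 of the DPF3a list and 36.8 of the SMAD4 list by height.

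**Figure D2:**
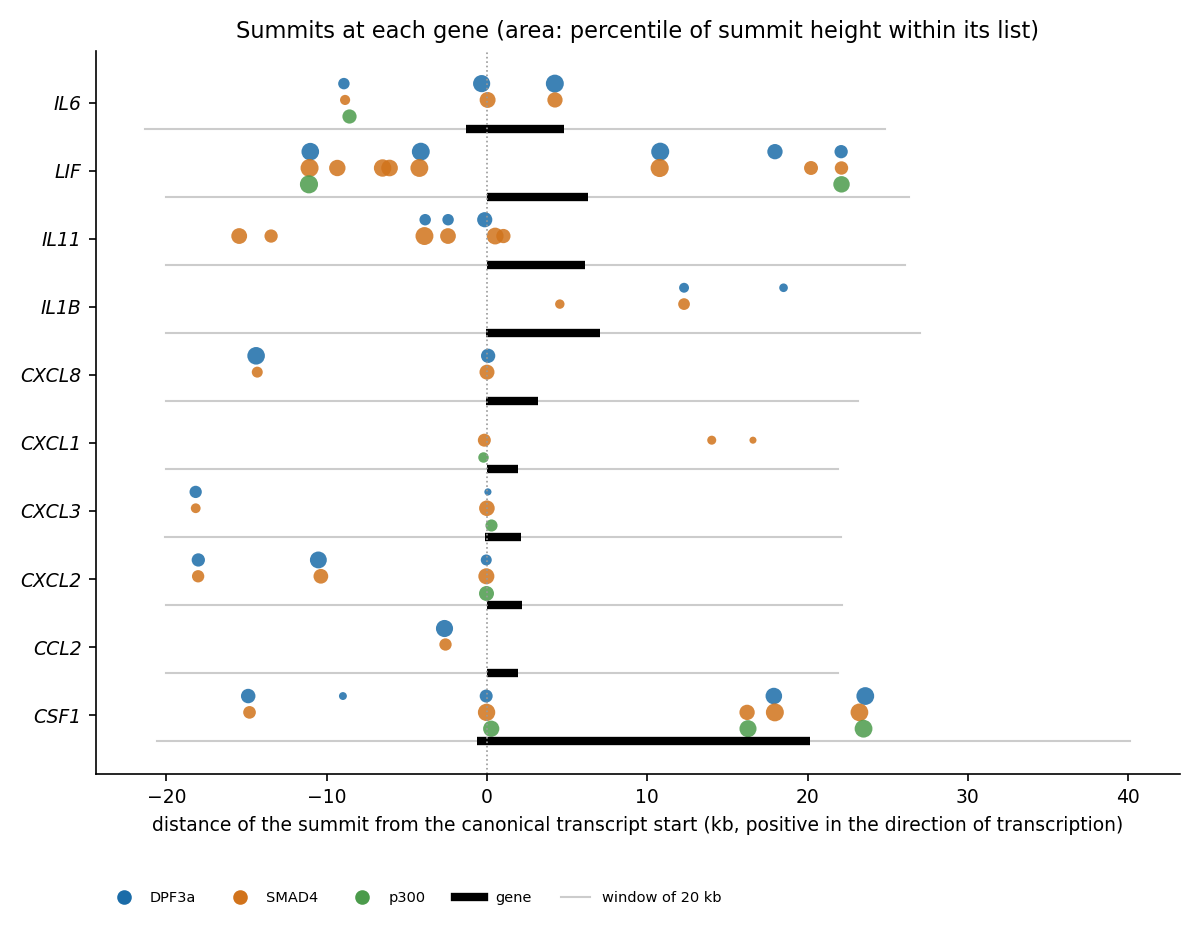
Position of each summit (x axis, kb from the canonical transcript start, positive in the direction of transcription) for the 10 genes (y axis), with the gene in black and its window in grey. Point area grows with the percentile of summit height within the list. DPF3a and SMAD4 points stand above each other at most places, and p300 points stand mainly at the CXCL1, CXCL2 and CXCL3 starts, at LIF and at CSF1.

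CXCL8 (ENSG00000169429, chr4:73740519-73743716, plus strand), which encodes interleukin-8, had DPF3a and SMAD4 at 2 shared sites and no p300 peak within 20 kb. At the promoter, DPF3a had 29 reads (19.4 to 41.6) over 1.92 at 67 bp, and SMAD4 55 reads (41.4 to 71.6) over 3.62 at −5 bp. The fold enrichments, 10.3 and 12.1, ranked at percentile 83.8 and 95.8, and the SMAD4 value was the highest among the members. The upstream site was the strongest of the members for DPF3a by fold enrichment, 12.7 (percentile 93.9), with 72 reads (56.3 to 90.7) over 4.74 at −14409 bp. SMAD4 was weaker there, with 27 reads (17.8 to 39.3) over 5.2 at −14337 bp and a fold enrichment of 4.52 (percentile 17.4). So the promoter ranked higher than the upstream site for SMAD4, and lower for DPF3a. The upstream window held an NF-κB and an AP-1 match, in capitals in that order (hg38, plus strand, chr4:73726100-73726220). The promoter stretch runs from 150 to 51 bases before the RefSeq start and has an AP-1 match (GRCh38.p14, plus strand, chr4:73740419-73740518).
CXCL8 upstream: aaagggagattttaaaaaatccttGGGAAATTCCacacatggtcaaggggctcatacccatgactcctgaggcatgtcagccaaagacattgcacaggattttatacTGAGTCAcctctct
CXCL8 promoter: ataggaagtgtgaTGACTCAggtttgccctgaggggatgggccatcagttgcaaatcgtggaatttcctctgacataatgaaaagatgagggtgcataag

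CXCL1, CXCL2 and CXCL3 encode the closely related GRO chemokines, and their promoters are shown together because all 3 had SMAD4 and p300 peaks over or beside them. Each sequence covers 150 bases before the RefSeq start of the gene (GRCh38.p14; CXCL1 chr4:73869243-73869392, plus strand; CXCL2 chr4:74099196-74099345 and CXCL3 chr4:74038690-74038839, minus strand). The stretch in capitals is a pair of overlapping NF-κB matches, present at nearly the same place in each, beginning 79 to 77 bases before the start.
CXCL1: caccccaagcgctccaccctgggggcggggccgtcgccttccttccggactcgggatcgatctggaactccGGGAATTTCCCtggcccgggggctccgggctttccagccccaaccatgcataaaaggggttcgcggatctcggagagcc
CXCL2: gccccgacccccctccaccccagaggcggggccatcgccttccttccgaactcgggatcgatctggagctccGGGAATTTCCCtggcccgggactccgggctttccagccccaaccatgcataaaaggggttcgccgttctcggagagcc
CXCL3: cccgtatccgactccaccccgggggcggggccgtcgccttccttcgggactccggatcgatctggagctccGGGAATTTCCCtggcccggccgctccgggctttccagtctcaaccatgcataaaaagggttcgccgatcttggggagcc

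At CXCL1 (ENSG00000163739, chr4:73869393-73871308, plus strand) the promoter held SMAD4, with 37 reads (26.1 to 51) over 4.64 at −170 bp, and p300, with 17 reads (9.9 to 27.2) over 2.78 at −249 bp. These peaks were shared. The fold enrichments were 6.74 and 4.76. No DPF3a summit lay within 20 kb, and the nearest was 24174 bp from the gene, with a fold enrichment of 7.59. SMAD4 had 21 and 17 reads at 14017 and 16590 bp.

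CXCL2 (ENSG00000081041, chr4:74097040-74099196, minus strand) had all 3 factors at the promoter. DPF3a had 19 reads (11.4 to 29.7) over 2.22 at −50 bp, SMAD4 70 reads (54.6 to 88.4) over 8.04 at −44 bp, and p300 27 reads (17.8 to 39.3) over 3.8 at −80 bp. The fold enrichments were 6.21, 7.85 and 5.83. The SMAD4 and p300 peaks were shared, whereas the DPF3a peak, 356 bp wide, touched both without reaching the shared overlap. Upstream, DPF3a and SMAD4 shared a site at −10525 and −10369 bp, with 53 reads (39.7 to 69.3) and 52 reads (38.8 to 68.2). They shared a further site at −18015 and −18026 bp, with 25 and 33 reads, in an intron of MTHFD2L. Both upstream sites are nearer to the start of MTHFD2L than to that of CXCL2.

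CXCL3 (ENSG00000163734, chr4:74036589-74038807, minus strand) was the chemokine member with a site of all 3 factors. SMAD4 had 63 reads (48.4 to 80.6) over 6.14 at −10 bp, with a fold enrichment of 8.96 (percentile 80.4). DPF3a had 13 reads (6.92 to 22.2) over 1.98 at 53 bp, with a fold enrichment of 4.7 (percentile 10.8). This was the lowest DPF3a summit among the members, and its score of 52 lay just over the threshold of 50. For p300 the summit was in an intron at 275 bp, with 20 reads (12.2 to 30.9) over 2.28 and a fold enrichment of 6.4, the highest p300 value among the members (percentile 91.7). Upstream, at −18180 bp for DPF3a and −18177 bp for SMAD4, 22 and 23 reads were found.

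The promoters of CXCL1, CXCL2 and CXCL3 are near copies, and the authors removed reads of low mapping quality. Over the 150 bases shown, the identity was 88.7% for CXCL1 with CXCL2, 88.1% for CXCL1 with CXCL3 and 86.1% for CXCL2 with CXCL3. The 301 bp around the p300 summit of CXCL3 had their longest other match near CXCL2, with 96.0% identity over 301 bases, and those around its DPF3a summit with 91.4%. The longest match of the DPF3a promoter window of CXCL8 had 70.6% identity over 262 bases, and its SMAD4 promoter window had no match of at least 100 bases elsewhere on chromosome 4. Reads lost or exchanged between the copies would change the counts at these 3 promoters, and their part in the DPF3a difference between CXCL1 and the other 2 genes was not tested.

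Counted as a single locus, from 20 kb before CXCL8 to 20 kb after CXCL2 (chr4:73720519-74119196), the region held 13 DPF3a, 18 SMAD4 and 6 p300 summits. That is 3.26, 4.51 and 1.5 per 100 kb, beside 1.67, 1.5 and 0.659 per 100 kb over the genome. The genome rate also counts sequence far from genes, so it is not matched to a locus of genes. Short protein-coding genes, of at most 20751 bp, held means of 1.64, 2.04 and 0.862 summits in the gene or within 20 kb. These means are per window, which is shorter than 100 kb, so they cannot be set directly beside the locus rates. A rate per 100 kb around such genes was not computed, so whether the locus is denser than other gene windows was not tested. Of the locus summits, 6 DPF3a, 8 SMAD4 and 3 p300 lay outside the windows of the 4 member genes. The highest summits of the locus were among them, at 73917377 for DPF3a and 73917350 for SMAD4, 47984 bp past the start of CXCL1 in intergenic sequence. DPF3a had 73 reads (57.2 to 91.8) and a fold enrichment of 13.0 there, and SMAD4 99 reads (80.5 to 121.0) and 13.3. An AP-1 match lay 1 bp from the DPF3a summit. A further shared site, at 73817034 and 73817033, was 19606 bp upstream of CXCL6, with fold enrichments of 11.1 in both lists and 46 and 64 reads. At CXCL5, the p300 summit in an intron had 25 reads and was shared with SMAD4. Of the 6 p300 summits of the locus, 5 lay within 308 bp of a start, at CXCL6, CXCL1, CXCL5, CXCL3 and CXCL2. The other lay 3940 bp from the start of CXCL5. The share of all p300 summits this near to a start was not computed. This other summit and those at CXCL6 and CXCL1 were weak, with 16, 14 and 17 reads. Their scores were 54, 52 and 57, where the lowest score of the p300 list was 51. No p300 peak of the locus met the strongest distal DPF3a-SMAD4 sites.

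**Figure D3:**
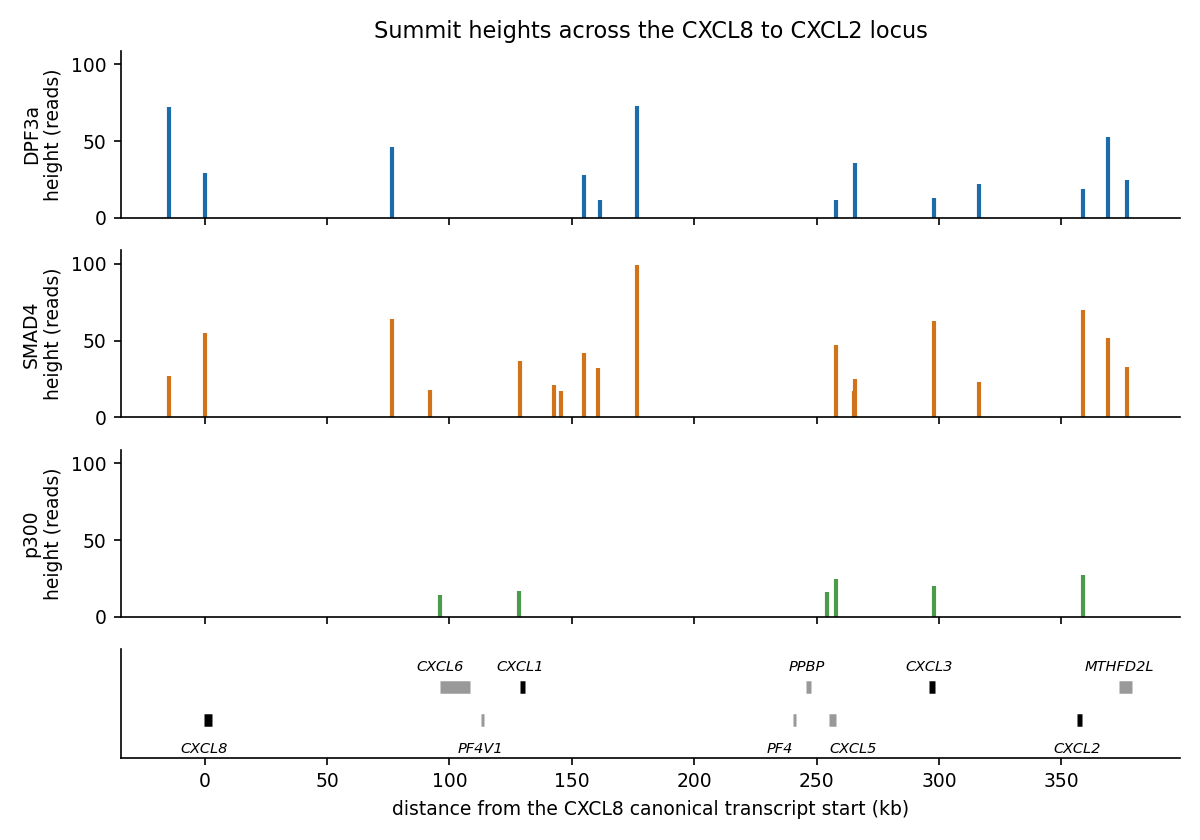
Summit heights in reads (y axis) for DPF3a, SMAD4 and p300 across the chemokine locus (x axis, kb from the CXCL8 canonical transcript start), with the genes in the lowest panel and member genes in black. The highest DPF3a and SMAD4 summits, 73 and 99 reads, stand between CXCL1 and the CXCL5 group, where p300 has no peak. Heights are not compared between panels, since each list has its own antibody and unknown depth.

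CCL2 (ENSG00000108691, chr17:34255274-34257208, plus strand) had a single site, upstream of the promoter. DPF3a had 58 reads (44 to 75) over 5.72 at −2700 bp, with a fold enrichment of 8.78 (percentile 73.4). SMAD4 had 33 reads (22.7 to 46.3) over 4.44 at −2647 bp, with a fold enrichment of 6.25 (percentile 49.4). An NF-κB match lay 42 bp from the SMAD4 summit, and beyond the stretch shown. The nearest p300 summit was 594285 bp away, and the next SMAD4 summit 383396 bp away. The window around the DPF3a summit is shown as the only site of this gene (hg38, plus strand, chr17:34252525-34252645), and none of the motifs searched was in it.
CCL2: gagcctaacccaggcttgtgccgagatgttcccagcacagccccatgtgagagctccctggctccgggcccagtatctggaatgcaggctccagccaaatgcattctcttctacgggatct

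CSF1 (ENSG00000184371, chr1:109910242-109930992, plus strand) had peaks of all 3 factors downstream, in an intron and around the promoter. The site of all 3 factors was downstream of the gene, with DPF3a at 23597 bp, SMAD4 at 23231 bp and p300 at 23488 bp. Its heights were 83 reads (66.1 to 103) over 9.46, 122 reads (101.0 to 146.0) over 16.0 and 43 reads (31.1 to 57.9) over 8.88. The fold enrichments were 8.03, 7.22 and 4.45. The strongest SMAD4 peak by fold enrichment was at the promoter, at −31 bp, with 9.31 and 102 reads (83.2 to 124.0), while its highest summit by reads was in an intron at 17955 bp, with 149 reads (126.0 to 175.0). DPF3a had 24 reads (15.4 to 35.7) over 3.34 at the promoter, at −55 bp. The p300 peak next to it, at 259 bp, touched both peaks without passing the shared overlap, with 31 reads over 8.86. At 16279 bp a weak p300 peak was shared with SMAD4 and had no DPF3a partner. The summit window of the site of all 3 factors held an NF-κB and an AP-1 match, in capitals in that order (hg38, plus strand, chr1:109934386-109934506).
CSF1: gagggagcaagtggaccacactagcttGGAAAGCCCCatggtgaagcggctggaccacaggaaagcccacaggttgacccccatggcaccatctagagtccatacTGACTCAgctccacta

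Over all 10 genes, peaks that touched each other by at least 1 bp made 38 places. DPF3a and SMAD4 without p300 held 16 of them, all 3 factors 7, SMAD4 alone 10, DPF3a alone 3 and SMAD4 with p300 2. No place was held by p300 alone, and each of the 9 p300 peaks touched a SMAD4 peak. The share of all p300 peaks that touch a SMAD4 peak was not computed, so this count has no background beside it. With the stricter overlap, 69.2% of the members' DPF3a peaks were shared with SMAD4, beside 59.3% of all DPF3a peaks, and 15.4% with p300, beside 16.6%. For SMAD4, 51.4% were shared with DPF3a, beside 65.9% of all SMAD4 peaks, and 20% with p300, beside 22.3%. For p300, 77.8% were shared with SMAD4 (7 of 9), beside 50.7%, and 44.4% with DPF3a (4 of 9), beside 41.9%. Of the DPF3a summits, 16 of 26 were intergenic and 6 in a promoter, and of the SMAD4 summits 19 of 35 were intergenic and 9 in a promoter. The same shares over the whole lists were not computed. The nearest protein-coding start was that of a member for 21 of 26 DPF3a, 28 of 35 SMAD4 and 8 of 9 p300 summits.

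The rank of the members' peaks depended on the measure. By fold enrichment, their median percentile was 46.4 in the DPF3a list, 31.6 in the SMAD4 list and 41.4 in the p300 list, where 50 is the middle of a list. By height in reads it was 59.6, 68.0 and 78.2. The range by fold enrichment reached from 1.34 to 93.9 for DPF3a, from 0.0129 to 95.8 for SMAD4 and from 1.23 to 91.7 for p300. Peaks of IL6, LIF, IL11 and CSF1 that stood high by reads and low by fold enrichment had local backgrounds well above the medians of their lists.

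**Figure D4:**
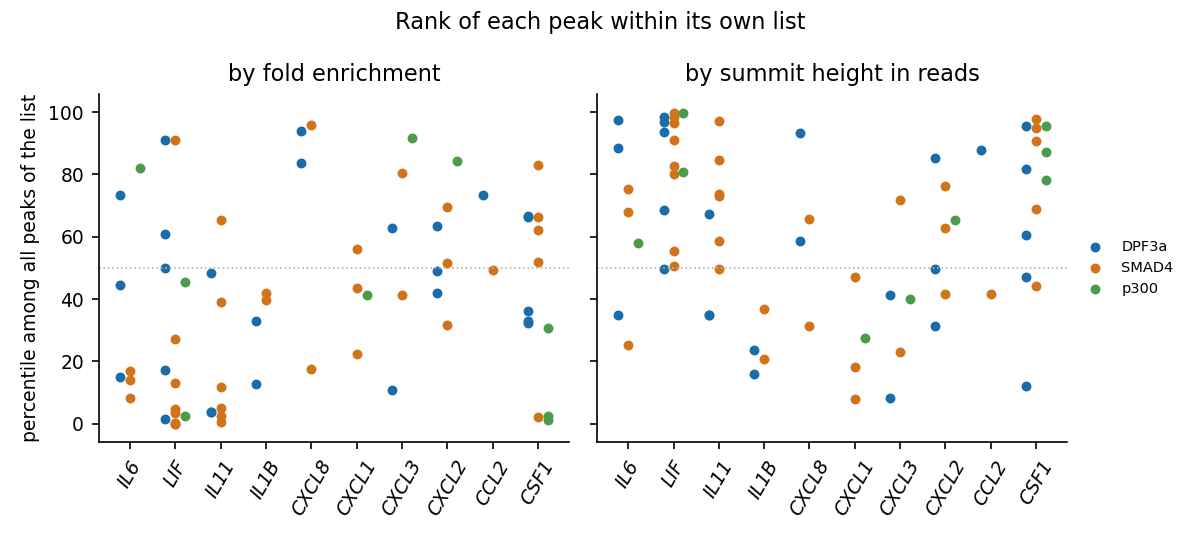
Percentile of every peak at the 10 genes (x axis) among all peaks of its own list (y axis), by fold enrichment on the left and by summit height in reads on the right. The SMAD4 peaks of LIF lie at 0.0129 to 91.0 on the left and at 50.7 to 99.7 on the right, and the dotted line marks the middle of a list.

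Motifs were searched on both strands within 50 bp of each summit. The AP-1 consensus TGACTCA was at 4 of 26 DPF3a summits, 5 of 35 SMAD4 summits and 1 of 9 p300 summits. These are 15.4%, 14.3% and 11.1%, beside 22%, 15.0% and 3.61% of all summits of the same lists. The members' DPF3a summits with it were at LIF, IL11, CXCL2 and CSF1. The NF-κB consensus was at 3 DPF3a, 4 SMAD4 and 1 p300 summits, 11.5%, 11.4% and 11.1%, beside 1.82%, 2.07% and 2.3% of all summits. It lay at DPF3a summits of CXCL2, CXCL8 and CSF1 and at SMAD4 summits of LIF, IL11, CXCL2 and CCL2. These shares rest on few summits, and the CXCL2 match is counted in all 3 lists. The RUNX consensus TGTGGTT was at 2 DPF3a and 2 SMAD4 summits, 7.69% and 5.71%, beside 7.04% and 6.02%. The C/EBP sequence TTGCNNAA was at 1 p300 summit, 11.1% beside 2.33%. It was at 0 DPF3a and 0 SMAD4 summits, beside 5.1% and 4.24% of all summits. The TEAD sequence ACATTCC was at 1 DPF3a summit, 3.85% beside 4.56%. The palindromic SMAD element GTCTAGAC and the CRE consensus were at 0 summits of the members, and are at 0.24% and 0.268% of all SMAD4 summits. The SMAD element GGCGCC was at 1 summit in each list, 3.85%, 2.86% and 11.1%, beside 3.33%, 5.75% and 8.35% (DPF3a, SMAD4, p300). The ETS sequence CCGGAAG was at 2 DPF3a summits and 1 SMAD4 summit, 7.69% and 2.86%, beside 1.15% and 1.9%. In the 250 bases before the RefSeq start, which the table gave for 7 of the 10 genes (not LIF, CCL2 and CSF1), the NF-κB consensus was at IL6, CXCL1, CXCL2 and CXCL3, 4 of 7, beside 5.21% of 35116 promoters. The matches of CXCL1, CXCL2 and CXCL3 lie in promoters 86.1% to 88.7% identical over 150 bases, so they are not independent. CXCL8, IL11 and IL1B had no exact NF-κB match, and sequences that differ from the consensus were not searched. The AP-1 consensus was at IL11 and CXCL8, 2 of 7, beside 4.2%.

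Other genes of the same pathways were counted by the same rule. Among 49 other cytokine and chemokine genes, 33 had a DPF3a peak, 34 a SMAD4 peak, 23 a p300 peak and 12 a site of all 3 factors. These counts lay below the shares over all protein-coding genes, which were 79.1%, 81.4%, 64.8% and 41.4% in the same order. The shares over the 8538 short genes, 68.4%, 71.7%, 52.6% and 32.1%, were nearer to these counts. The lengths of the 49 genes were not compared with those of other genes. The shares over all protein-coding genes apply also to the lists that follow. The 12 were IL1A, IL15, TSLP, CSF2, IL7, IL23A, IL16, IL32, CTF1, IL34, CXCL16 and OSM, and the OSM site is the upstream LIF site. Another list held 13 receptor genes, those of the members' ligands and OSMR, a receptor gene of OSM. Of the 13, 10 had a DPF3a peak, 10 a SMAD4 peak and 10 a p300 peak, though not the same 10. A site of all 3 factors was held by 9, namely IL6R, IL6ST, LIFR, OSMR, IL11RA, IL1R1, IL1R2, IL1RAP and CSF1R. IL1R1, the signaling receptor of IL-1, held 3 sites of all 3 factors among 15 peaks of DPF3a, 13 of SMAD4 and 3 of p300. Of 17 genes of NF-κB, C/EBP and STAT3 regulation, 17 had a peak of each factor somewhere in the window, and 9 held a site of all 3 factors. These were NFKBIZ, CHUK, NFKB2, RELA, STAT3, SOCS3, NFKBIB, ZFP36 and CEBPB. Many receptor genes are longer than the members, and a longer window holds more summits.

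Some peaks lay close to the limit of 20 kb. CXCL2 and CXCL3 each had a DPF3a peak just inside it, 18014 and 18062 bp from the gene, with fold enrichments of 7.74 and 7.67. Just outside lay DPF3a peaks of CXCL8 at 21643 bp and of LIF at 22719 bp, with 7.23 and 4.63. SMAD4 peaks outside were those of LIF at 22643 bp and of CXCL1 at 24098 bp, with 6.6 and 8.5.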

How the data were processed

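Per the series' design text, the authors made each peak list from both libraries of a factor, and how these were combined is not given in the sources used here. Per the study's methods, reads were trimmed, aligned to hg38 (Bowtie2 2.3.5.1), filtered on mapping quality and duplicates, and passed to MACS2 2.2.5 without a named control. The deposited columns are the integer score of the authors (over 50), the fold enrichment ratio at the summit, −log10 p and −log10 q. The read totals are unknown. Height and background were solved from the deposited fold enrichment and −log10 p (largest error 0.00086), and the lowest backgrounds were 1.17 (DPF3a), 2.25 (SMAD4) and 2.05 (p300) reads.

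Gene windows came from GENCODE 44, whose chromosome names and lengths fitted every peak. Overlaps were checked against bedtools 2.31.1 (6 of 6 counts identical), and code was tested on simulated data. Copies in the chemokine locus were searched with BLAST+ 2.17.0. Members, gene lists and motifs were chosen with earlier results of these data known. Text names all members, their strongest peaks and sites of all 3 factors, and genes of other lists with such a site. Alternatives were other distances, scores, overlaps, strength measures and motif windows. Some summit window sequences are not reported here.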

Additional observations from a re-analysis of the deposited data

How the results depend on the processing

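No paired analysis was possible because a factor has a single list for its 2 libraries, and for the same reason no replicate could be left out. Of 69 counts recomputed under the alternatives, all planned, 38 stayed within 1.5 times of the reported count and 31 did not, and the 6 median percentiles all differed from those reported. Unless its construction explains a change, the cause was not tested. Within 5 kb the windows held 14 DPF3a and 18 SMAD4 peaks, 10 DPF3a-SMAD4, 2 DPF3a-p300 and 2 sites of all 3 factors, fewer as a shorter window must. Within 50 kb they held 50 DPF3a, 64 SMAD4 and 16 p300 peaks and 32 DPF3a-SMAD4 sites. With a score over 100, p300 had 3 members with a peak, 3 peaks, 2 sites shared with DPF3a and 3 with SMAD4, 2 sites of all 3 factors, and 2 peaks in the chemokine locus. At scores above 200 the windows kept 10 DPF3a and 13 SMAD4 peaks, 1 p300 peak at 1 member, 6 DPF3a-SMAD4 sites, 1 DPF3a-p300, 1 SMAD4-p300 and 1 site of all 3 factors, and in the chemokine locus 6 DPF3a, 7 SMAD4 and 0 p300 peaks. With an overlap of 1 bp, 7 sites were shared between DPF3a and p300 and 7 among all 3. The median percentile was 59.5, 46.1 and 75.9 by −log10 q and 59.6, 68.0 and 78.2 by height (DPF3a, SMAD4, p300). The AP-1 consensus was at 9 DPF3a summits within 100 bp, 34.6% beside 34.2% of all DPF3a summits. Within 150 bp it was at 9 DPF3a and 9 SMAD4 summits, 34.6% and 25.7%, beside 38.6% and 29.6% of all summits. Assigning summits to the nearest protein-coding start gave 10, 10 and 6 members with a peak. Peaks of few reads, such as the 13 of DPF3a at CXCL3, limit what the depth can show.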
